A study of Homo sapiens with 14 samples.

Results

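The BET proteins and the elongation complex that acts with them were examined through the transcripts of 8 genes in MEL1 cells, a human embryonic stem cell line that carries GFP at 1 insulin allele, and in cells differentiated from it. These were BRD2, BRD3 and BRDT, which encode BET proteins, CDK9, CCNT1 and CCNT2, which encode the kinase and the cyclins of the positive transcription elongation factor b (P-TEFb), and HEXIM1 and LARP7, which encode proteins of the particle that holds P-TEFb inactive. They are listed by name as members of this pathway, with no threshold on their values, and they are 8 of the 60624 gene identifiers listed in each library.

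A total of 14 RNA-seq libraries fell into 9 groups by their titles, and all came from this 1 line, so each group describes a single genetic background. The first batch held 1 library each of undifferentiated hPSC on CF1 feeder cells, of DE, the definitive endoderm derived from them, of PP2, their stepwise pancreatic progenitors, and of SC-β, the β-like cells reached without an expansion step, and these carry no replicate check. The second batch held expandable pancreatic progenitors (ePPs) at passage 9 (ePP-P9) and passage 21 (ePP-P21) and their β-like derivatives (ePP-β), with 2 libraries in each group. The third batch held 2 libraries each of hPSC-derived pancreatic progenitors treated for 7 days with DMSO, the solvent, or with 1 μM I-BET151, a small-molecule inhibitor of the BET bromodomains. According to the study's methods, ePPs were themselves kept on feeder cells in a medium with EGF, bFGF, an inhibitor of the TGFβ receptor and I-BET151, so the inhibitor was present in the ePP-P9 and ePP-P21 cultures but is not among the listed components of the media that turn them into ePP-β cells. Nothing in the labels says that replicates came from separate cultures, and the p-values measure the spread between these libraries, which may be technical.

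BET proteins bind acetylated histones through paired bromodomains and help to bring active P-TEFb to promoters and enhancers. P-TEFb, formed by the kinase CDK9 and cyclin T1 or T2, phosphorylates RNA polymerase II and its pausing factors so that a paused polymerase can enter elongation. A large pool of P-TEFb is kept inactive in a particle built on the 7SK small nuclear RNA, in which LARP7 and MEPCE stabilise the RNA and HEXIM1 or HEXIM2 inhibits the kinase, and HEXIM1 transcript is widely used as a pharmacodynamic marker of BET inhibition.

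All 8 genes are protein-coding in the GENCODE 44 annotation of GRCh38. HEXIM1 (ENSG00000186834) lies on the plus strand at chr17:45148475-45152099 and has 1 exon in its canonical transcript, with its paralog HEXIM2 nearby. BRD2 (ENSG00000204256) is at chr6:32968594-32981505 on the plus strand with 13 canonical exons, BRD3 (ENSG00000169925) at chr9:134030305-134068535 on the minus strand with 12, and BRDT (ENSG00000137948) at chr1:91949343-92014426 on the plus strand with 19. CDK9 (ENSG00000136807) is at chr9:127785679-127790792 on the plus strand with 7 canonical exons, CCNT1 (ENSG00000129315) at chr12:48688458-48716998 on the minus strand with 9, CCNT2 (ENSG00000082258) at chr2:134918235-134959342 on the plus strand with 9, and LARP7 (ENSG00000174720) at chr4:112637077-112657696 on the plus strand with 13.

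The 250 bases that precede the RefSeq start of HEXIM1 are shown. This gene was chosen because it had the largest log2 difference of the 8 genes in both the I-BET151 comparison and the ePP-β comparison. This window is chr17:45148225-45148474 on the plus strand of GRCh38.p14, ends 1 base before the gene and is written 5′ to 3′. Capitals mark matches on either strand to the TATA box letters TATAAA, the CCAAT box or the GC box letters GGGCGG.
HEXIM1: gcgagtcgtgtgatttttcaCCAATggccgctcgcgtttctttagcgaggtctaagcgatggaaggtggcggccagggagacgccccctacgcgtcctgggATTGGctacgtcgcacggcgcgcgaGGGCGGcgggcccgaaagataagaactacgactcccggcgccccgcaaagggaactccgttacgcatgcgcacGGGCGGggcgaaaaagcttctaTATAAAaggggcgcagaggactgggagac

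The TATAAA match began at position -29 relative to the start of the gene. Matches to CCAAT began at -230 and, on the other strand, at -149, and matches to GGGCGG at -124 and -51. The letters CACGTG and TGACGTCA, also searched on both strands with overlaps allowed, were not in this window. Of 35116 RefSeq promoter windows of the same length, 10.7% held TATAAA, 32% held CCAAT, 42.6% held GGGCGG, 6.34% held CACGTG and 1.65% held TGACGTCA. The HEXIM1 window had 62.4% G and C, against a median of 58% over all windows. Among the other genes, TATAAA was found in a window of BRDT only, while GGGCGG was found in at least 1 window of each of the 8 genes. These matches describe letters and do not show that a factor binds there.

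Values are given in TPM, a relative transcript level within a library that is corrected for transcript length. The listed values summed to between 908685 and 985497 TPM per library, 14982 to 17578 genes reached 1 TPM, and ribosomal protein genes took 9.81% to 27.9% of the listed TPM. Read depth is unknown for TPM, and how precise a value is can be judged only from the 2 libraries of a group. Single stage markers were high under their labels, with POU5F1 at 3401 TPM in hPSC, SOX17 at 1140 TPM in DE and PDX1 at 251 TPM in PP2. INS was at 10916 and 17374 TPM in the ePP-β libraries. Other marks were present as well. The pluripotency genes POU5F1, NANOG and SOX2 still summed to 401 TPM in DE. The liver genes ALB, APOA1 and TTR summed to 1803 TPM in PP2 and 27540 TPM in SC-β. The mesenchymal genes COL1A1, COL3A1, PDGFRB and THY1 summed to 1135 TPM in PP2 and 2167 TPM in SC-β. In bulk RNA, fewer cells of a type and less RNA per cell cannot be told apart. Levels set side by side across batches cannot be told apart from the batch, and no test was made across batches.

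**Figure D1:**
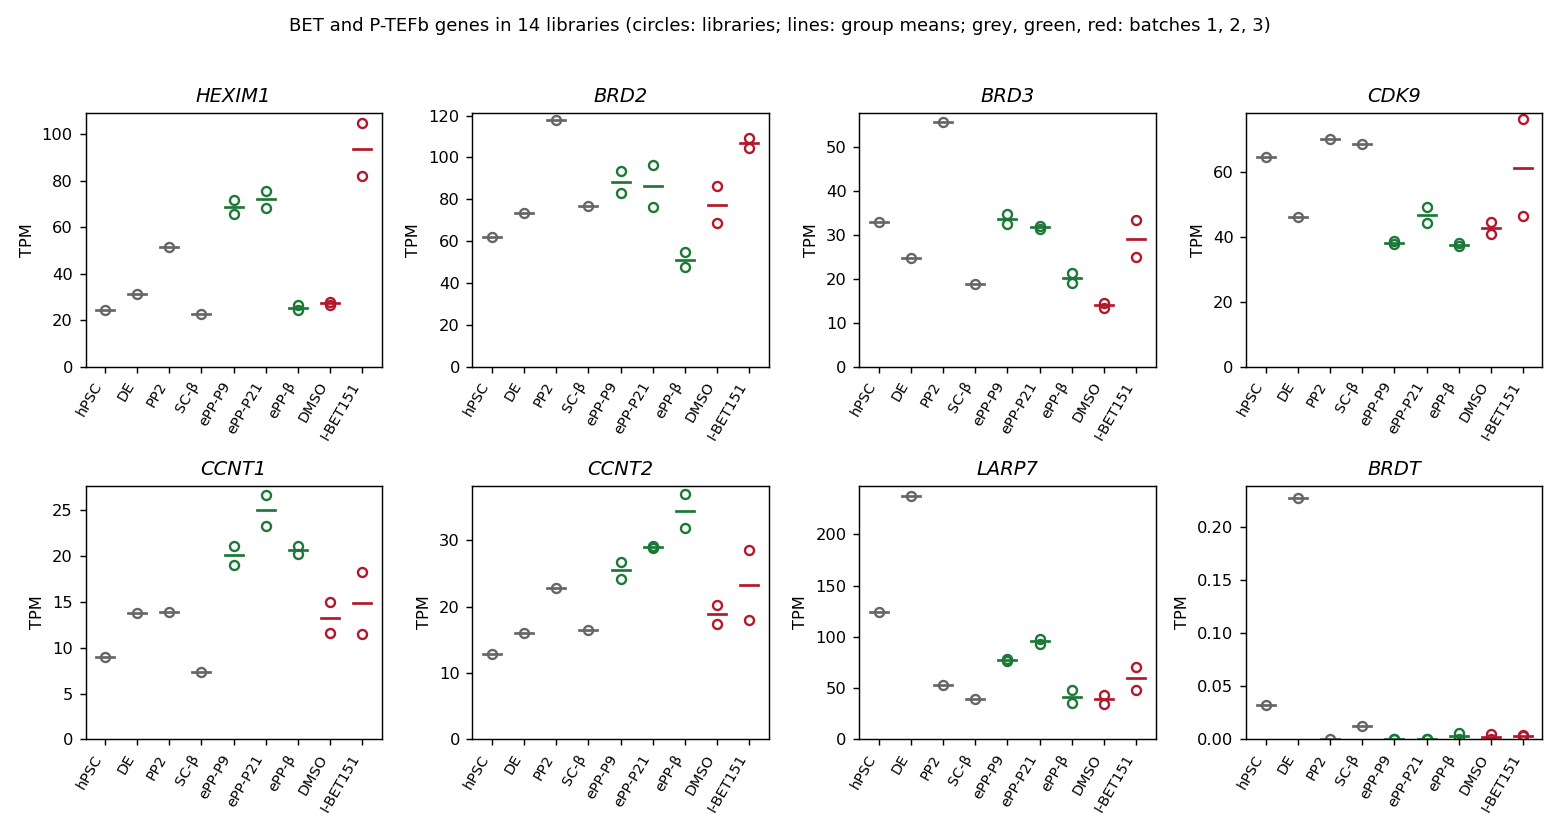
TPM (linear axes from 0) of the 8 genes in each of the 14 libraries, by group, with a line at each group mean and colours for the 3 batches. HEXIM1 sits between 65.7 and 105 TPM in the ePP-P9, ePP-P21 and I-BET151 libraries and between 22.5 and 51.5 TPM in all others, while BRDT stays at or below 0.227 TPM throughout.

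HEXIM1 was highest in the libraries from cells kept with I-BET151, whether progenitors or ePPs. It was at 24.5 TPM in hPSC, 31.1 TPM in DE, 51.5 TPM in PP2 and 22.5 TPM in SC-β. The ePP libraries had 65.7 and 71.6 TPM at passage 9 and 68.2 and 75.7 TPM at passage 21, and the ePP-β libraries had 26.5 and 24.3 TPM. With DMSO it was at 26.5 and 27.9 TPM, and with I-BET151 at 105 and 82.2 TPM. The 6 libraries from cells in medium with I-BET151 were thus the 6 highest of the 14. By group mean the order was I-BET151, ePP-P21, ePP-P9, PP2, DE, DMSO, ePP-β, hPSC and SC-β. In this order the ranges of ePP-P21 and ePP-P9 overlapped, those of DMSO and ePP-β overlapped, and the hPSC value lay inside the ePP-β range.

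The BET genes BRD2 and BRD3 were detected in every library. BRD2 was at 62.1 TPM in hPSC, 73.6 TPM in DE, 118 TPM in PP2 and 76.8 TPM in SC-β. The ePP libraries had 83.1 and 93.7 TPM at passage 9 and 76.2 and 96.4 TPM at passage 21, and the ePP-β libraries had 54.8 and 47.6 TPM. With DMSO it was at 86.4 and 68.5 TPM, and with I-BET151 at 104 and 109 TPM. The PP2 library was the highest and the ePP-β libraries held the lowest and the second lowest values.

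BRD3 was lower than BRD2 in each library. It was at 33.1 TPM in hPSC, 24.7 TPM in DE, 55.7 TPM in PP2 and 18.8 TPM in SC-β. The ePP libraries had 34.7 and 32.6 TPM at passage 9 and 32.2 and 31.5 TPM at passage 21, and the ePP-β libraries had 21.3 and 19.1 TPM. With DMSO it was at 13.5 and 14.5 TPM, and with I-BET151 at 33.5 and 24.9 TPM. The DMSO libraries held the lowest BRD3 values of all, although PP2, the stepwise progenitor from another batch, held the highest. The ratio of BRD2 to BRD3 TPM within a library ran from 1.88 in hPSC to 6.41 in DMSO replicate 1. BRDT, the testis-specific BET gene, reached at most 0.227 TPM, in DE, was listed at 0 in 7 libraries and passed the low-value filter in none of the comparisons. Of the other genes looked at as marks of male germ cells, the listed TPM of DDX4, DAZL, PRM1, PRM2, TNP1 and ACR summed to no more than 5.43 in any library.

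CDK9, the catalytic subunit of P-TEFb, was at 64.6 TPM in hPSC, 46.2 TPM in DE, 70.3 TPM in PP2 and 68.5 TPM in SC-β. The ePP libraries had 38.9 and 37.7 TPM at passage 9 and 44.4 and 49.3 TPM at passage 21, and the ePP-β libraries had 38.1 and 37.1 TPM. With DMSO it was at 44.6 and 40.9 TPM, and with I-BET151 at 76.2 and 46.4 TPM. The 2 I-BET151 libraries lay far apart, and 1 of them was the highest of the 14.

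The T-type cyclins had the lowest mean levels of the 7 expressed genes over all libraries, 16.5 TPM for CCNT1 and 23.6 TPM for CCNT2. CCNT1 was at 9.01 TPM in hPSC, 13.8 TPM in DE, 13.9 TPM in PP2, 7.36 TPM in SC-β, 19.0 and 21.1 TPM in ePPs at passage 9 and 23.2 and 26.6 TPM at passage 21, 20.2 and 21.04 TPM in ePP-β, 11.6 and 14.9 TPM with DMSO and 11.5 and 18.2 TPM with I-BET151. CCNT2 was at 12.9 TPM in hPSC, 16.0 TPM in DE, 22.8 TPM in PP2, 16.5 TPM in SC-β, 26.8 and 24.2 TPM in ePPs at passage 9 and 28.8 and 29.1 TPM at passage 21, 31.8 and 37.0 TPM in ePP-β, 17.4 and 20.3 TPM with DMSO and 18.0 and 28.5 TPM with I-BET151. The 6 libraries of the second batch, ePPs and ePP-β, were all above the other 8 in CCNT1, whereas in CCNT2 the higher I-BET151 library lay among them. CCNT2 exceeded CCNT1 in every library, by a ratio of 1.09 to 2.25. The noncoding gene CCNT2-AS1 overlaps the start of CCNT2 on the opposite strand. It was at 16.1 to 27.9 TPM in ePPs and at 8.64 and 6.77 TPM in ePP-β. With DMSO it was at 4.77 and 2.77 TPM, and with I-BET151 at 8.13 and 6.78 TPM. The use of strand in counting was not stated, so the CCNT2 values are uncertain to that extent. Among genes at or above 1 TPM, CCNT1 ranked between the 40.3 and 64.1 percentiles of its library and BRD2 between the 82.1 and 92.4 percentiles.

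LARP7, which binds the 3′ end of 7SK RNA, was at 124 TPM in hPSC, 237 TPM in DE, 53.1 TPM in PP2 and 39.4 TPM in SC-β. The ePP libraries had 76.3 and 78.6 TPM at passage 9 and 93.1 and 98.0 TPM at passage 21, and the ePP-β libraries had 35.1 and 47.8 TPM. With DMSO it was at 35.0 and 43.7 TPM, and with I-BET151 at 48.0 and 71.0 TPM. The highest values were in DE and hPSC. The noncoding gene MIR302CHG, host of the miR-302 and miR-367 miRNAs of pluripotent cells, lies within LARP7 on the opposite strand at chr4:112646476-112650051 and was at 481 TPM in hPSC and 1955 TPM in DE, against at most 0.82 TPM elsewhere. The use of strand in counting was not stated, so reads of the overlap cannot be told apart and the LARP7 values of hPSC and DE are uncertain.

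**Figure D2:**
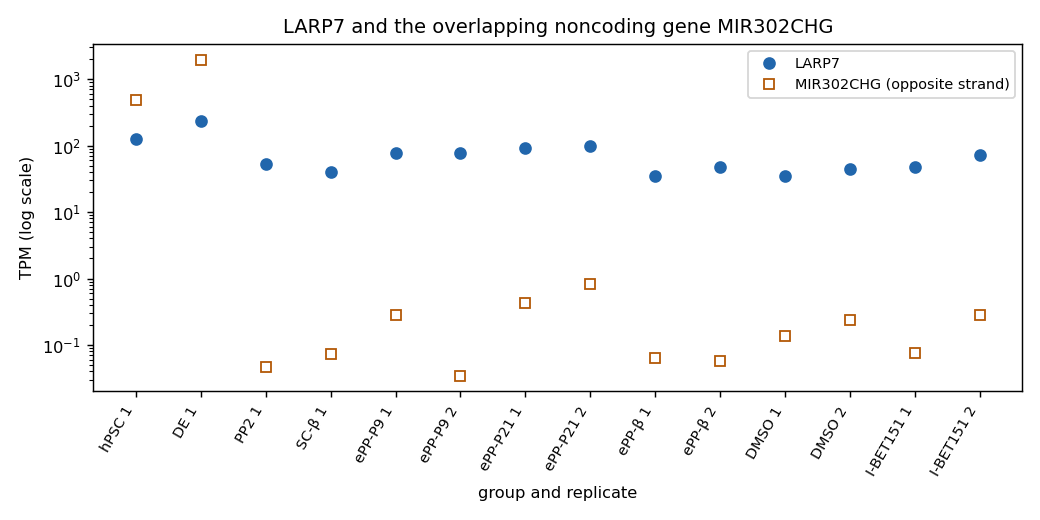
TPM (log axis) of LARP7 (filled circles) and of MIR302CHG, which overlaps it on the opposite strand (open squares), in each library. MIR302CHG exceeds LARP7 in hPSC and DE only, at 481 and 1955 TPM, and is at or below 0.82 TPM in the other 12 libraries.

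The balance of the inhibitor to the kinase was followed by the ratio of HEXIM1 to CDK9 TPM within each library. The ratio was 0.38 in hPSC, 0.67 in DE, 0.73 in PP2 and 0.33 in SC-β. It was 1.69 and 1.90 in ePP-P9, 1.54 and 1.53 in ePP-P21, 0.70 and 0.65 in ePP-β, 0.59 and 0.68 in DMSO and 1.38 and 1.77 in I-BET151. HEXIM1 thus exceeded CDK9 in the 6 libraries with I-BET151 in the medium and was below it in the other 8. The summed cyclin T level over CDK9 ran from 0.34 in hPSC to 1.56 in an ePP-β library and was 0.65 and 0.86 in DMSO and 0.39 and 1.01 in I-BET151, where the groups overlapped. These are ratios of transcripts, not of proteins.

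**Figure D3:**
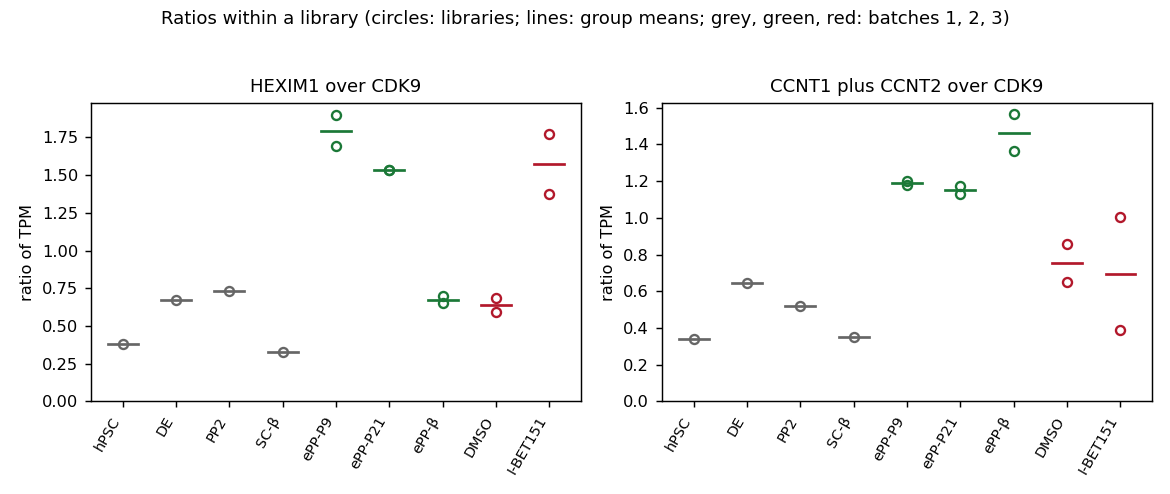
Ratio of HEXIM1 to CDK9 TPM (left) and of summed CCNT1 and CCNT2 to CDK9 TPM (right) in each library, on linear axes from 0, with lines at group means and colours for the 3 batches. The left ratio lies between 1.38 and 1.90 in the ePP-P9, ePP-P21 and I-BET151 libraries and at or below 0.73 elsewhere, whereas the right ratio overlaps between DMSO and I-BET151.

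The comparison of I-BET151 with DMSO addressed how progenitors differ after 7 days with the inhibitor. HEXIM1 had a mean of 93.6 ± 16.1 TPM (SD, n = 2) with I-BET151 and 27.2 ± 1.01 TPM (SD, n = 2) with DMSO. BRD3 had means of 29.2 ± 6.08 and 14.003 ± 0.734 TPM (SD, n = 2 each), and BRD2 of 107 ± 3.64 and 77.5 ± 12.7 TPM (SD, n = 2 each). Means were 61.3 ± 21.1 and 42.8 ± 2.61 TPM for CDK9 and 59.5 ± 16.2 and 39.3 ± 6.17 TPM for LARP7 (SD, n = 2 each), and BRDT was at or below 0.00538 TPM in all 4 libraries.

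Between libraries with the same replicate number, HEXIM1 was 3.96-fold higher with I-BET151 for replicate 1 and 2.94-fold higher for replicate 2. BRD3 was 2.49-fold and 1.72-fold higher, and BRD2 was 1.21-fold and 1.60-fold higher. CDK9 was 1.71-fold higher for replicate 1 and 1.13-fold higher for replicate 2, and LARP7 was 1.37-fold and 1.62-fold higher. For the cyclins the ratios were near 1 for replicate 1, at 0.989 for CCNT1 and 1.03 for CCNT2, and were 1.22 and 1.41 for replicate 2. The direction was upwards in both pairs for 6 of the 7 expressed genes, all but CCNT1.

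**Figure D4:**
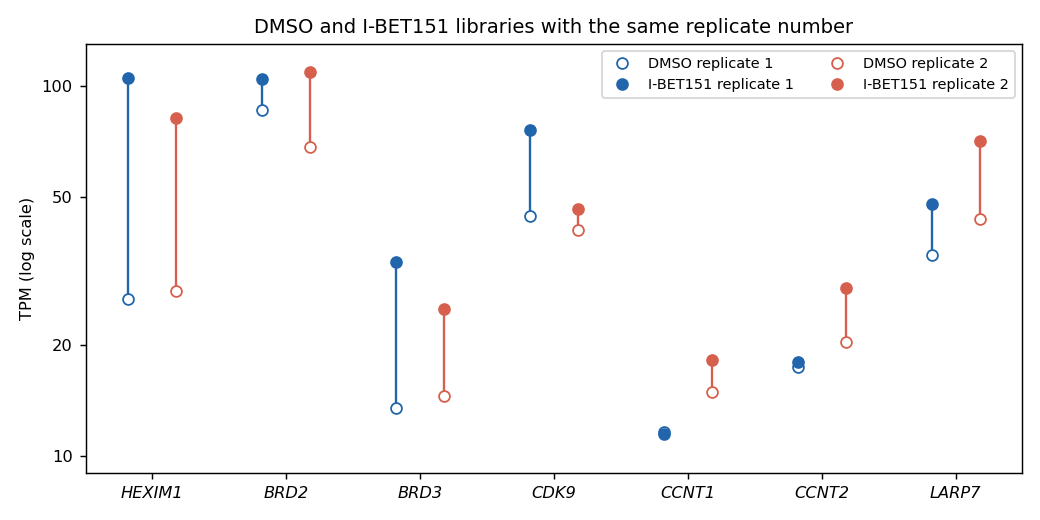
TPM (log axis) of the 7 expressed genes in DMSO (open circles) and I-BET151 (filled circles) libraries, joined where they carry the same replicate number. The longest lines are those of HEXIM1, 26.5 to 105 and 27.9 to 82.2 TPM, followed by those of BRD3, and the CCNT1 line of replicate 1 is nearly flat at 11.6 and 11.5 TPM.

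In the fit that ignores replicate numbers, none of the 7 genes tested passed the threshold. That threshold was an adjusted p under 0.05 by limma over 16687 genes, and 0.21% of all genes were called. With the replicate number as a block, HEXIM1 and BRD3 were called, with limma adjusted p-values of 0.00835 and 0.0336, against 19.1% of all genes. The differences between replicates 2 and 1 correlated across genes at r = 0.675 for DMSO with I-BET151, but nothing says what replicate numbers share. The values that follow are therefore from the fit without the block, which gave wider SEs for these genes. For HEXIM1 the SE was 0.31 without the block and 0.18 with it. On the log2(TPM + 1) scale HEXIM1 was higher by 1.73 with I-BET151 (SE 0.31, 95% interval 0.94 to 2.53), with an unadjusted limma p of 0.00238 and an adjusted p of 0.102. BRD3 was higher by 1.00 (SE 0.32, 95% interval 0.17 to 1.82), with an unadjusted limma p of 0.0263 and an adjusted p of 0.248. These were the 2 of 7 genes with an unadjusted p under 0.05, against 15.2% of all genes. The intervals of these log2 differences are not adjusted for the number of genes.

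For the remaining genes the log2 difference had an interval that held 0. It was 0.57 for LARP7 (95% interval -0.33 to 1.47), 0.47 for BRD2 (-0.32 to 1.26), 0.47 for CDK9 (-0.47 to 1.40), 0.26 for CCNT2 (-0.66 to 1.18) and 0.13 for CCNT1 (-0.82 to 1.08), so changes of 1 log2 unit or more upwards are within reach of each at this spread. The groups did not overlap, with I-BET151 higher, for HEXIM1, BRD3, BRD2, CDK9 and LARP7, which is 5 of 7 genes, against 28.7% of all genes tested. The median log2 difference of the 7 genes was 0.47, and that of all genes was 0.16.

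Leaving out 1 library moved the log2 difference of CDK9 to 0.12 without I-BET151 replicate 1 and to 0.82 without I-BET151 replicate 2. That of LARP7 moved to 0.29 without I-BET151 replicate 2 and that of BRD2 to 0.30 without DMSO replicate 2. The outcome for HEXIM1 turned on the libraries and the design used. Without I-BET151 replicate 2 its log2 difference was 1.91 with an limma adjusted p of 0.0326, and without each of the other libraries the adjusted p was over 0.05, up to 0.481. A fit with all 10 replicated libraries joins batches 2 and 3 for the estimate of the spread. In it HEXIM1 and BRD3 passed, with limma adjusted p-values of 0.00121 and 0.0142, and 11.6% of all genes were called. Other features of these libraries moved with the treatment, and their part in these values was not tested. The liver genes ALB, APOA1 and TTR summed to 4272 and 3316 TPM with DMSO and 367 and 458 TPM with I-BET151, with all 3 lower and 1 of 3 called. The progenitor genes PDX1, NKX6-1 and SOX9 summed to 294 and 215 TPM with DMSO and 820 and 480 TPM with I-BET151, with all 3 higher and none called. The mesenchymal genes COL1A1, COL3A1, PDGFRB and THY1 summed to 164 and 64.1 TPM with DMSO and 73.0 and 31.3 TPM with I-BET151. Of the 3 tested, 2 were lower, 1 was higher and 0 were called. The higher one was PDGFRB, at 11.6 and 6.10 TPM with DMSO and 14.3 and 6.37 TPM with I-BET151. THY1 was at or below 0.22 TPM. BRD3OS, which overlaps BRD3 on the opposite strand, was at 7.52 and 7.96 TPM with DMSO and 17.4 and 12.3 TPM with I-BET151, so the BRD3 values are uncertain to that extent.

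Passages 9 and 21 were compared to see whether ePPs held their expression over time in culture. HEXIM1 had means of 68.6 ± 4.17 TPM (SD, n = 2) at passage 9 and 72.0 ± 5.33 TPM (SD, n = 2) at passage 21, and the groups overlapped. Its log2 difference, passage 21 relative to passage 9, was 0.07 (SE 0.10, 95% interval -0.18 to 0.31), with an limma adjusted p of 0.739 over 15822 genes. Among the BET genes the log2 difference was -0.04 for BRD2 (95% interval -0.38 to 0.30) and -0.08 for BRD3 (-0.33 to 0.18). With each library centred on its median these became -0.25 (SE 0.09) for BRD2 and -0.28 (SE 0.10) for BRD3, so the size of these differences depends on the scaling.

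None of the 7 genes was called between passages, where 1.95% of all genes were called by limma at an adjusted p under 0.05. CDK9 at 0.28 (SE 0.10) and LARP7 at 0.30 (SE 0.08) had unadjusted limma p-values of 0.0351 and 0.012 and adjusted p-values of 0.183 and 0.117, and they were the 2 of 7 genes with an unadjusted p under 0.05, against 23% of all genes. The log2 difference was 0.30 for CCNT1 (95% interval -0.03 to 0.63) and 0.18 for CCNT2 (-0.10 to 0.46). CDK9, CCNT1, CCNT2 and LARP7 did not overlap between passages and were higher at passage 21. This is 4 of 7 genes, against 41.3% of all genes that separated in this direction. BRD3 did not overlap either but was lower, at 34.7 and 32.6 TPM at passage 9 and 32.2 and 31.5 TPM at passage 21. The share of all genes that separated downwards is not given here. The median over all genes was itself 0.13 and became -0.07 with median centring, under which HEXIM1 and CCNT2 turned slightly negative. CDK9 and LARP7 were then at 0.08 and 0.09, with unadjusted limma p-values of 0.36 and 0.201, and BRD2 and BRD3 were the 2 genes with an unadjusted limma p under 0.05, at 0.0486 and 0.0459.

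The comparison of ePP-β with ePPs addressed what changes when ePPs become β-like cells. Of the 7 genes tested, 5 passed the threshold, against 57.4% of all genes. HEXIM1 fell most on the log2 scale. Its mean was 70.3 ± 4.35 TPM in ePPs (SD, n = 4) and 25.4 ± 1.62 TPM in ePP-β (SD, n = 2). LARP7, its partner in the 7SK particle, fell as well, with means of 86.5 ± 10.7 TPM in ePPs (SD, n = 4) and 41.5 ± 9.02 TPM in ePP-β (SD, n = 2). The BET genes BRD2 and BRD3 also fell, whereas the cyclin gene CCNT2 rose, with a mean of 27.2 ± 2.27 TPM before (SD, n = 4) and 34.4 ± 3.68 TPM after differentiation (SD, n = 2). CCNT2-AS1, which overlaps CCNT2 on the opposite strand, was lower in ePP-β, and the CCNT2 values are uncertain to the extent of its reads.

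The log2 difference, ePP-β relative to the mean of the 2 passages, was -1.43 for HEXIM1 (SE 0.09), with an limma adjusted p of 6.7e-05 over 18076 genes. It was -1.05 for LARP7 (SE 0.13), with an limma adjusted p of 0.000892. For BRD2 it was -0.76 (SE 0.12, limma adjusted p = 0.00294), and for BRD3 it was -0.67 (SE 0.09, limma adjusted p = 0.0013). For CCNT2 it was 0.33 (SE 0.10, limma adjusted p = 0.0339). In these 5 genes no ePP-β library lay within the range of the 4 ePP libraries. The share of all genes with such a separation is not given here, so it is not read as particular to them. Over all genes 28.2% were called lower and 29.2% higher, so the 4 genes called lower and the 1 called higher are to be read against a comparison in which most genes moved.

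CDK9 and CCNT1 were not called. The log2 difference was -0.17 for CDK9 (95% interval -0.37 to 0.03) with an limma adjusted p of 0.128, and -0.11 for CCNT1 (95% interval -0.37 to 0.15) with an limma adjusted p of 0.414. Their groups overlapped, and a change of 0.4 log2 units lay outside both intervals in this fit. That bound is not general. The SE was 0.08 for CDK9 and 0.11 for CCNT1 here, but 0.20 and 0.21 with all 10 replicated libraries in 1 fit. The CCNT2 call was lost in the fit with all 10 replicated libraries (limma adjusted p = 0.242), with no filter on low values (0.06) and without the intensity trend (0.0552). It was also lost when any 1 library other than ePP-β replicate 1 was left out, with limma adjusted p-values of up to 0.198, and after median centring, where its log2 difference was 0.19 and the limma adjusted p 0.149. Median centring also brought CDK9, at -0.30, and CCNT1, at -0.25, under the threshold. Since I-BET151 was a listed component of the ePP medium and not of the differentiation media, cell state and inhibitor cannot be told apart in this comparison. The liver genes ALB, APOA1 and TTR, of which TTR is also a gene of islet cells, were all called higher in ePP-β, with sums of 76.8 to 86.2 TPM in the 4 ePP libraries and 13970 and 16592 TPM in the ePP-β libraries. Their part in these values was not tested.

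**Figure D5:**
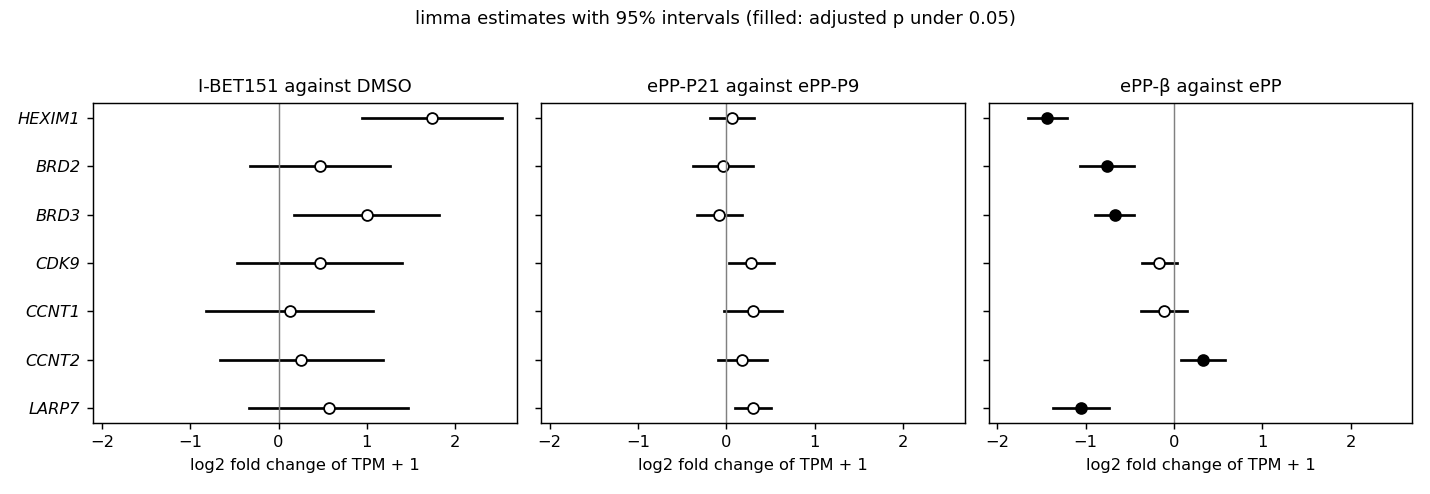
Differences on the log2(TPM + 1) scale (points) with unadjusted 95% intervals (bars) from limma for 7 genes in 3 comparisons, filled where the adjusted p is under 0.05. HEXIM1 is at 1.73, 0.07 and -1.43 from left to right, and only the ePP-β panel holds filled points, 4 below 0 and 1 above.

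The other genes of the pathway were taken as lists by function. Their counts in ePP-β are to be read against the 29.2% of all genes called higher and the 28.2% called lower. Among the rest of the 7SK particle, HEXIM2, the paralog of HEXIM1, ran in the other direction in the β-like cells. It was at 2.60 to 7.04 TPM in the 4 ePP libraries and at 11.2 and 11.5 TPM in ePP-β, a log2 difference of 1.27 (SE 0.39, limma adjusted p = 0.0328). The ratio of HEXIM1 to HEXIM2 TPM ran from 0.91 in SC-β to 28.7 in an ePP-P21 library. MEPCE, which caps 7SK RNA, fell from 26.0 to 28.8 TPM in ePPs to 14.7 and 15.0 TPM in ePP-β, a log2 difference of -0.86 (SE 0.09, limma adjusted p = 0.000493). RN7SK itself was listed at 2.65 to 36.2 TPM, values that are uncertain because the RNA is not polyadenylated and has many near-identical copies in the genome.

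In the super elongation complex, which carries active P-TEFb, 4 of 9 tested genes rose and 1 fell in ePP-β, against 29.2% and 28.2% of all genes. ELL2, an elongation factor that releases stalled polymerase, rose from 32.2 to 41.2 TPM in ePPs to 109 and 116 TPM in ePP-β (log2 difference 1.68), and EAF1, its binding partner, rose by a log2 difference of 0.58. MLLT1, a YEATS-domain reader, differed by -0.51. The list had a median log2 difference of 0.21, against -0.03 for all genes.

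Of the 6 genes of DSIF and NELF, the factors that hold the polymerase in a pause and that P-TEFb phosphorylates, 4 fell and 1 rose, against 28.2% and 29.2% of all genes. The NELF subunits NELFA and NELFB had log2 differences of -0.90 and -0.79, and the DSIF subunit SUPT4H1 had 0.29. Of the 10 genes of the PAF1 complex and related elongation factors, 4 fell and 0 rose, against the same shares. RTF1, a PAF1-associated factor, was at 51.0 to 60.9 TPM in ePPs and at 24.2 and 29.1 TPM in ePP-β (log2 difference -1.02), and SUPT16H, a subunit of the histone chaperone FACT, differed by -0.62.

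Of 13 other transcriptional CDKs and their cyclins, 5 fell and 1 rose in ePP-β, again against 28.2% and 29.2% of all genes. CCNK, the cyclin partner of CDK12 and CDK13, had a log2 difference of -1.08, and CCNH, of the kinase module of TFIIH, had 0.56. CDK11B had -0.97, a value that is uncertain because CDK11A is a near-identical copy. Of 34 other bromodomain genes tested, 15 fell and 8 rose, against 28.2% and 29.2% of all genes, with a median log2 difference of -0.44 against -0.03 for all genes. SMARCA2 and SMARCA4, the alternative ATPases of the BAF chromatin remodeller, went in opposite directions. SMARCA2 rose from 1.07 to 5.15 TPM in ePPs to 60.3 and 65.9 TPM in ePP-β (log2 difference 3.89), and SMARCA4 fell from 86.7 to 113 TPM to 30.1 and 40.3 TPM (log2 difference -1.49). SP100, a nuclear body protein, was at or below 0.15 TPM in ePPs and at 6.60 and 8.32 TPM in ePP-β (log2 difference 3.00). BAZ1A, a subunit of ISWI remodellers, had a log2 difference of -1.65.

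In the I-BET151 comparison no gene of these 6 lists was called by limma. Of 33 other bromodomain genes tested, 27 were higher and 6 lower with I-BET151, with a median log2 difference of 0.39 against 0.16 for all genes, and an unadjusted p under 0.05 was reached by 4, against 15.2% of all genes. The widest difference among them was that of SP100, at 6.06 and 8.70 TPM with DMSO and at 0.22 and 0.79 TPM with I-BET151 in ascending order, a log2 difference of -2.49 with an limma adjusted p of 0.0785. SP100 is named here after its values were seen. The PAF1 list had a median log2 difference of 0.43, and 2 of its 10 genes had an unadjusted p under 0.05, against 15.2% of all genes. None of the other 4 lists held a gene under that threshold. Between passages, SSRP1, the other FACT subunit, fell from 95.005 and 95.3 TPM at passage 9 to 51.5 and 56.2 TPM at passage 21 (log2 difference -0.81, limma adjusted p = 0.035). CCNL2, a cyclin of CDK11, rose from 28.01 and 43.2 TPM to 124 and 125 TPM (log2 difference 1.81, limma adjusted p = 0.0359). After median centring 0 genes of the whole table were called between passages by limma, with 4176 at an unadjusted p under 0.05.

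The likeness of patterns was described by Pearson's r of log2(TPM + 1) over the 14 libraries, among 9103 protein-coding genes with a mean of at least 10 TPM. These libraries share a cell line, and batches are confounded with groups, so r describes these libraries alone. The genes most like HEXIM1 were ZSWIM6 (r = 0.951), CLN6 (0.948) and SLBP (0.940). Those most like BRD2 were MPND (0.905), FZD4 (0.885) and TEDC1 (0.885), and those most like BRD3 were PI4K2A (0.966), SFPQ (0.936) and MTOR (0.934). For CDK9 they were GATD1 (0.944), ARRDC1 (0.937) and LRCH4 (0.932), for CCNT1 PKN2 (0.982), KIF5B (0.967) and RAB33B (0.961), for CCNT2 USP47 (0.958), POLR2M (0.952) and ENSG00000258653 (0.950), and for LARP7 LONRF1 (0.930), WWC2 (0.913) and CRLF3 (0.91). Between the genes themselves, r was 0.861 for CCNT1 with CCNT2, 0.733 for BRD2 with HEXIM1 and -0.690 for CDK9 with CCNT1.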

How the data were processed

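Total RNA of MEL1-derived cells was made into libraries by the authors with the NEBNext Ultra kit and sequenced with paired ends. Per the labels and the study's methods, reads were aligned to GRCh38 with HISAT2 2.1.0 and assembled with StringTie, and the deposited values are TPM per gene identifier. Annotation release and strand setting are not given in the sources used here. Of 60624 identifiers, 60370 matched GENCODE 44.

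Genes that reached 1 TPM in 2 or more libraries of a fit were kept, and log2(TPM + 1) was tested with limma 3.58.1 in R 4.3.3 (eBayes with trend, two-sided, Benjamini-Hochberg over all genes tested). On this scale the change of low genes is understated. Unless stated, only the compared groups, within 1 batch, entered a fit. A further fit of all 10 replicated libraries joined batches 2 and 3. The ePP level was the mean of both passage means. The code was tested on simulated data. Alternatives were other pseudocounts, filters, scalings and fits, and leaving out each library.

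The 8 genes and the lists were chosen with earlier results of these data known. Named beyond the 8 were the 3 genes most like each, and up to 2 called genes per list and direction with the largest differences.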

Additional observations from a re-analysis of the deposited data

How the results depend on the processing

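With I-BET151, HEXIM1 and BRD3 kept their direction under all alternatives. Of the 7 genes, 2 were called in the fit with all 10 libraries, where 11.6% of all genes were called. Replicate numbers come from the titles and nothing says what they share, so pairing was not assumed. With the replicate block, 2 genes were called (HEXIM1, limma adjusted p = 0.00835, and BRD3, 0.0336) and 3189 of 16687 genes instead of 35. With the block, 2 genes of the PAF1 list were also called higher and, of the other bromodomain genes, 5 higher and 1 lower, where 0 were called without it. The differences between replicates 2 and 1 correlated across genes at r = 0.675 for DMSO with I-BET151, and at -0.00933, 0.0323 and 0.0424 for the pairs of ePP-P9, ePP-P21 and ePP-β. The block changed no other call among the 7 genes. Leaving out 1 library moved CCNT1 from -0.18 to 0.44 (-0.04 without DMSO replicate 1), CCNT2 from -0.058 to 0.58, CDK9 from 0.12 to 0.82, LARP7 from 0.29 to 0.84 and BRD2 from 0.30 to 0.63.

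Between passages, HEXIM1 was at -0.14 with median centring and -0.023 with quantile normalization, CCNT2 at -0.026 with median centring, and leaving out 1 library moved HEXIM1 from -0.00799 to 0.14 and BRD2 from -0.21 to 0.13 (0.04 without ePP-P9 replicate 2). Over all genes, 288 were called higher and 21 lower, against 12 and 4 with quantile normalization. In ePP-β, 2 of the 7 genes (HEXIM1 and LARP7) were called when the log2 difference also had to exceed 1, against 27.8% of all genes. CDK9 was called and CCNT2 was not when ribosomal protein genes and mitochondrial pseudogenes were left out together. The cause of these shifts was not tested.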
